A study of Mus musculus with 12 samples.

Results

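The 10 genes described here mark the cells of brain blood vessels. Cldn5, Pecam1, Flt1, Kdr, Tek, Cdh5, Slco1a4 and Abcb1a are genes of endothelial cells, and Pdgfrb and Rgs5 are genes of pericytes. They were chosen by name, and every Affymetrix probe set that the platform annotation paired with one of them alone was taken. This gave 19 probe sets for the 10 genes, out of 18193 genes measured, and the probe set with the highest mean signal over all mice stood for its gene. Each of these 10 probe sets had a mean signal above the 40th percentile of all probe sets.

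Endothelial cells line the brain's vessels, and in the brain they are sealed by tight junctions and equipped with transporters and efflux pumps that together form the blood-brain barrier. Pericytes sit on the outer wall of the capillaries, in contact with the endothelium, and depend on PDGF signalling from it. The striatum, the forebrain nucleus that was sampled, loses projection neurons in Huntington's disease, and its vessels supply those neurons.

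Striatal RNA of 12 C57BL/6 mice was measured on 1 mouse expression array per mouse, in 4 groups of 3 separate animals. Wild-type mice and HdhQ92/Q92 knock-in mice (called Q92 here) were each sampled young, at 3 months (aged 100 to 103 days), and old, at 18 months (aged 567 to 604 days). The Q92 mice carry 92 CAG repeats that come from exon 1 of the human Huntington's disease gene and sit in the mouse's own gene, Htt, in every cell. Of the 3 mice in a group, 1 was female in wild type at 3 months, and 2 were female in each of the other groups. Mice are named by group and animal number, with wt for wild type and m for months.

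All values are log2 signals, so a difference of 1 is a doubling, and each test is a limma moderated test, adjusted by Benjamini-Hochberg over the 45037 probe sets of a comparison at a threshold of 0.05. Correlations between arrays ran from 0.983 to 0.995. The striatal neuron genes Ppp1r1b, Penk and Drd1 had signals above 9 in all 12 mice. Drd2, a further one, ran from 7.27 in mouse Q92_18m_66 to 9.22 in mouse wt_3m_467. Striatal tissue was thus present in every sample. Genes of cortical and thalamic neurons, from neighbouring regions, varied between mice, from -0.66 to 0.93 and from -0.74 to 0.97 about their 12-mouse means. The share of neighbouring tissue was not tested. Choroid plexus genes, which mark the epithelium of the neighbouring ventricle, stood 2.16 above their 12-mouse mean in mouse Q92_3m_439, 1.97 above it in mouse wt_18m_12 and 0.60 above it in mouse Q92_18m_25. Of 3 control probe sets for 18S ribosomal RNA, the one for its 5′ end had a signal that ran from 5.64 to 5.75 in the wild-type mice of 18 months and from 6.21 to 8.31 in the Q92 mice of that age, without overlap. The other two, for its middle and 3′ end, did overlap, since mouse Q92_18m_25, at 5.21 and 6.51, was not above the wild-type mice (5.07 to 5.39 and 6.53 to 6.65). The 18S signal used from here on is that of the 5′ end. At 3 months it ran from 5.28 to 8.70 in wild type and from 6.66 to 11.2 in Q92. Htt itself was 0.30 higher in Q92 than in wild type at 3 months (SE 0.10, adjusted p = 1.00) and 0.10 higher at 18 months (SE 0.10, adjusted p = 0.883).

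None of the 10 vascular genes passed the test in any comparison of genotype or age. At 18 months all 10 were lower in Q92 than in wild type, by 0.03 to 0.37, and at 3 months all 10 were higher, by 0.01 to 0.29. Single mice carried part of these counts. Without mouse wt_3m_436 only 6 of the 10 were higher at 3 months, and with quantile normalisation 8 were. At 18 months 9 of the 10 were lower without mouse Q92_18m_25, wt_18m_9, wt_18m_12 or wt_18m_17. The widest difference was that of Pecam1 at 18 months and that of Kdr at 3 months. In bulk tissue, fewer vascular cells and less RNA per vascular cell cannot be told apart.

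**Figure D1:**
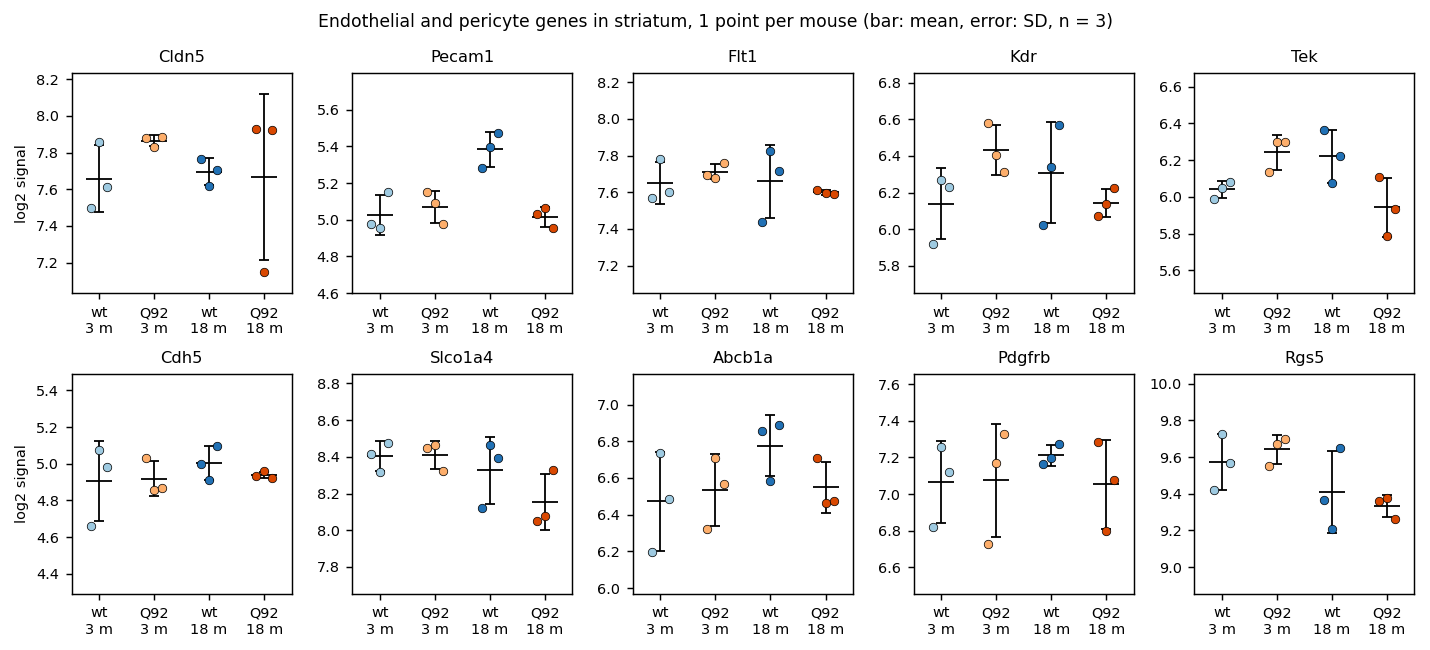
Log2 signal of the 10 genes by group, 1 point per mouse, with the mean as a long bar and the SD (n = 3) as the error bar. Each panel spans the same height in log2 units but has its own range. The Pecam1 points of the 3 wild-type mice of 18 months lie above all other groups, and the lone low Cldn5 point at 18 months is mouse Q92_18m_25.

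Pecam1 encodes a cell adhesion molecule at the contacts between endothelial cells. Its log2 signal was 4.98, 4.95 and 5.15 in the wild-type mice of 3 months (5.03 ± 0.11, SD, n = 3) and 5.15, 5.09 and 4.98 in the Q92 mice of that age (5.07 ± 0.09). At 18 months it was 5.28, 5.40 and 5.47 in wild type (5.38 ± 0.10) and 5.03, 5.06 and 4.96 in Q92 (5.02 ± 0.05). The 18-month wild-type mice thus stood alone at the top, above all 9 others, while the other groups overlapped. The difference of Q92 from wild type at 18 months was -0.37 (95% interval -0.57 to -0.17, a 1.29-fold lower signal), and its adjusted p was 0.242. Over all mice the Pecam1 signal moved against the 18S signal (r = -0.66), the largest such r in size among the genes described here. The 18S signal also separated the genotypes without overlap at 18 months. With the 18S signal as a covariate, a choice made after seeing the data, the Pecam1 difference at 18 months was -0.30 with an adjusted p of 0.662. The part of the 18S signal in it was not tested further.

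Cdh5 encodes VE-cadherin, the adhesion protein of endothelial adherens junctions, and Cldn5 encodes claudin-5, the main claudin of the barrier's tight junctions. Cdh5 had group means from 4.91 ± 0.22 in the wild-type mice of 3 months to 5.00 ± 0.09 in those of 18 months (SD, n = 3), and all 4 groups overlapped. Cldn5 was 7.50, 7.86 and 7.61 in wild type and 7.88, 7.83 and 7.88 in Q92 at 3 months. At 18 months Cldn5 was 7.76, 7.62 and 7.71 in wild type and 7.93, 7.15 and 7.93 in Q92. Of the Q92 mice of 18 months, mouse Q92_18m_25 thus had the lowest Cldn5 signal of all 12 animals, and its group mates had the highest. The genotype difference of Cldn5 at 18 months was -0.03, with an interval from -0.41 to 0.35. It rested on mouse Q92_18m_25, without which Cldn5 was 0.23 higher in Q92.

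Flt1 and Kdr encode the VEGF receptors 1 and 2, and Tek encodes Tie2, the receptor of the angiopoietins. Kdr was 5.92, 6.27 and 6.23 in wild type and 6.58, 6.41 and 6.31 in Q92 at 3 months. At 18 months Kdr was 6.02, 6.34 and 6.57 in wild type and 6.07, 6.14 and 6.22 in Q92. All 3 young Q92 mice were above all 3 young wild-type mice, and the old Q92 mice lay within the range of the old wild-type mice. The Kdr difference was 0.29 at 3 months (interval -0.01 to 0.60, adjusted p = 1.00) and -0.17 at 18 months (interval -0.47 to 0.14, adjusted p = 0.849). Leaving out 1 mouse moved both, to 0.18 at 3 months without mouse wt_3m_436, and at 18 months to -0.035 without mouse wt_18m_17 and to -0.31 without mouse wt_18m_9.

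Tek was 5.99, 6.05 and 6.08 in wild type and 6.13, 6.30 and 6.30 in Q92 at 3 months, and it was 6.36, 6.08 and 6.22 in wild type and 6.11, 5.79 and 5.93 in Q92 at 18 months. Again the young Q92 mice were all above the young wild-type mice, while at 18 months the ranges met in 1 pair, since mouse Q92_18m_11 was just above mouse wt_18m_12. The Tek difference was 0.20 at 3 months (interval -0.03 to 0.43, adjusted p = 1.00) and -0.28 at 18 months (interval -0.51 to -0.05, adjusted p = 0.539). Flt1 had means of 7.65 ± 0.11 in wild type and 7.71 ± 0.04 in Q92 at 3 months, and of 7.66 ± 0.20 in wild type and 7.60 ± 0.01 in Q92 at 18 months (SD, n = 3). Its genotype difference was 0.06 at 3 months and -0.06 at 18 months, and it was 0.02 at 18 months without mouse wt_18m_12. A nearly as bright Flt1 probe set, 1419300_at, differed by 0.24 at 3 months (interval -0.05 to 0.53) and -0.26 at 18 months (interval -0.55 to 0.03), and the mean of all Flt1 probe sets differed by -0.22 at 18 months.

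Slco1a4 encodes Oatp1a4, an organic anion transporter of the barrier, and Abcb1a encodes P-glycoprotein, the efflux pump that keeps many drugs out of the brain. Slco1a4 was 8.12, 8.47 and 8.39 in wild type and 8.05, 8.08 and 8.33 in Q92 at 18 months, a difference of -0.17 (interval -0.42 to 0.07), which was -0.28 without mouse wt_18m_9 and -0.11 without mouse wt_18m_12, and at 3 months its groups differed by 0.01. Abcb1a was 6.86, 6.58 and 6.89 in wild type and 6.71, 6.46 and 6.47 in Q92 at 18 months, a difference of -0.23 (interval -0.55 to 0.09). The groups of both genes overlapped at both ages.

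Pdgfrb encodes the PDGF receptor through which endothelial cells recruit pericytes, and Rgs5 encodes a regulator of G-protein signalling that is abundant in pericytes. Pdgfrb had means between 7.05 ± 0.24 and 7.21 ± 0.06 in the 4 groups (SD, n = 3), and its genotype difference was 0.01 at 3 months and -0.16 at 18 months (interval -0.52 to 0.20), the latter -0.031 without mouse Q92_18m_25. Rgs5 was 9.42, 9.72 and 9.57 in wild type and 9.55, 9.67 and 9.70 in Q92 at 3 months. At 18 months Rgs5 was 9.37, 9.21 and 9.65 in wild type and 9.36, 9.38 and 9.26 in Q92. The genotypes overlapped at both ages, with differences of 0.07 and -0.08, and the old Q92 mice were all below the young ones. The difference of -0.08 was 0.04 without mouse wt_18m_17.

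The promoters of Flt1, Kdr, Tek and Rgs5 are shown for the following reason. By their brightest probe sets, these 4 genes were lower in every Q92 mouse of 18 months than in every Q92 mouse of 3 months. Each line gives the 250 bases before the gene's start, 5′ to 3′ on the gene's strand, from RefSeq on GRCm38.p6, and capitals mark GGAA or its reverse complement TTCC, the core that ETS transcription factors such as Erg bind. The windows lie at chr5:147726012-147726261 (minus strand) for Flt1, chr5:75978456-75978705 (minus strand) for Kdr, chr4:94739039-94739288 (plus strand) for Tek and chr1:169655251-169655500 (plus strand) for Rgs5.
Flt1: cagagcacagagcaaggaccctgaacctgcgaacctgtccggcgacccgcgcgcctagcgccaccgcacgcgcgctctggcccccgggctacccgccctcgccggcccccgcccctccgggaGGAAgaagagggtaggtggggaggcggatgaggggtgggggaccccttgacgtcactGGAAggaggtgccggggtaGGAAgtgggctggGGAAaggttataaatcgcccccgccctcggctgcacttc
Kdr: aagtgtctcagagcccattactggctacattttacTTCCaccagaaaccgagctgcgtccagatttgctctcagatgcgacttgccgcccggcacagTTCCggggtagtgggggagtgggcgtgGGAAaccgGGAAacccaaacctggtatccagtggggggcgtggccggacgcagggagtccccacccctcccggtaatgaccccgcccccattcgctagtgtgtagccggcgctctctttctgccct
Tek: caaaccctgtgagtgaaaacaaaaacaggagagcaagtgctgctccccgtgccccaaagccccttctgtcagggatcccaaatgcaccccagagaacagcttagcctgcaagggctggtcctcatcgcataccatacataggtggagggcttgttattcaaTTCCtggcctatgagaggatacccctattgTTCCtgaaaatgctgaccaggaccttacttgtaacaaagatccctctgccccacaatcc
Rgs5: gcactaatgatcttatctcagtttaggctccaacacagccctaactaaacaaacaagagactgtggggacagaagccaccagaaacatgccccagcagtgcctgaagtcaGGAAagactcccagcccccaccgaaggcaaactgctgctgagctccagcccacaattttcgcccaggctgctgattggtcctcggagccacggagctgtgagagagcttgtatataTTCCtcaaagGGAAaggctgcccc

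These windows hold 4 cores in Flt1, 4 in Kdr, 2 in Tek and 3 in Rgs5, counted on both strands, and the cores do not overlap each other. Flt1 also has the letters TATAAA starting 31 bases before its start. Windows were counted here for 7 of the 10 genes. None was found for Pecam1 and Cdh5, and Pdgfrb, on chromosome 18, was left out of the count. Of the 7, 6 hold at least 1 core while Cldn5 holds 0. Among all 32851 such windows, 93.4% hold at least 1 core, 54.7% hold at least 3, the median is 3 and 7.59% hold TATAAA, so the core counts of the 4 genes lie around the common value.

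At 18 months the old Q92 mice, of 596, 567 and 574 days, were set against the old wild-type mice, of 604, 596 and 596 days. Genotype and age in days were thus partly confounded. Of the 10 genes, 0 passed, against 0.0770% of all genes, and all 10 were lower in Q92, with a median of -0.16. Over all 18193 genes, 9163 were lower and the median was -0.00136. Only Pecam1 had groups without overlap, and 7.51% of all genes had Q92 mice entirely below wild type and 6.50% entirely above. The intervals of Pecam1 and Tek lay below 0, and the other 8 included it. The median rested in part on single animals: it was -0.08 without mouse wt_18m_17 and -0.071 when mice were compared only at the same age in days, which sets mouse Q92_18m_11 against mice wt_18m_12 and wt_18m_17, all of 596 days. In that last comparison 8 of the 10 were lower, and Tek differed by -0.04 and Pecam1 by -0.40.

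Genes of several other cell types were also lower in the same 18-month comparison. Projection neuron genes were lower in 10 of 10, with a median of -0.92, and 1 of them, Penk, fell past the threshold. Astrocyte genes were lower in 7 of 8 (median -0.19), microglial genes in 8 of 10 (median -0.26) and oligodendrocyte genes in 6 of 8 (median -0.13). Astrocyte endfoot genes were lower in 4 of 7 (median -0.18), choroid plexus genes in 8 of 11 (median -0.20) and thalamic neuron genes in 7 of 8 (median -0.34). Cortical excitatory neuron genes went the other way, with 8 of 9 higher in Q92 and a median of 0.30. The mean levels of several lists, about their 12-mouse means, differed between the old Q92 mice. In mouse Q92_18m_66 thalamic genes were at 0.97, microglial genes at 0.57, astrocyte genes at 0.19 and cortical genes at -0.66. In mice Q92_18m_11 and Q92_18m_25 these lists were at -0.74 and -0.53, -0.14 and -0.15, -0.20 and -0.06, and 0.83 and 0.93. Projection neuron genes were low in all 3, from -1.07 to -0.39. The part of these cell types in the vascular result was not tested.

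The young Q92 mice were compared with young wild-type mice in the same way. Of the 10 genes, 0 passed (0.0165% of all genes did), and all 10 were higher in Q92, with a median of 0.06, while 6 of 10 were without mouse wt_3m_436. Over all genes 7745 of 18193 were higher and the median was -0.02. Kdr and Tek had all Q92 mice above all wild-type mice, where 2.30% of all genes did and 4.34% had them below. Every interval of the 10 genes included 0. The median was 0.02 without that mouse, which had the lowest signal of all 12 mice in 3 of the 10 genes and lay below its group mean in 9 of them, and it was 0.14 without mouse Q92_3m_439.

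How the genotype difference itself changed with age was tested in its own right. It was negative for all 10 genes, and for 9 of them without mouse wt_3m_436 or without mouse Q92_18m_25, with a median of -0.21 against 0.02 for all genes, and no gene of the whole array passed (0%). Tek had a change of -0.48 (interval -0.81 to -0.15, adjusted p = 0.935), Kdr one of -0.46 (-0.89 to -0.03, adjusted p = 0.946) and Pecam1 one of -0.41 (-0.70 to -0.13, adjusted p = 0.935). The other 7 genes had changes between -0.29 for Abcb1a and -0.08 for Cdh5, with intervals that included 0. The change is built from the same 12 mice as the comparisons at each age, so these signs are not separate evidence.

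**Figure D2:**
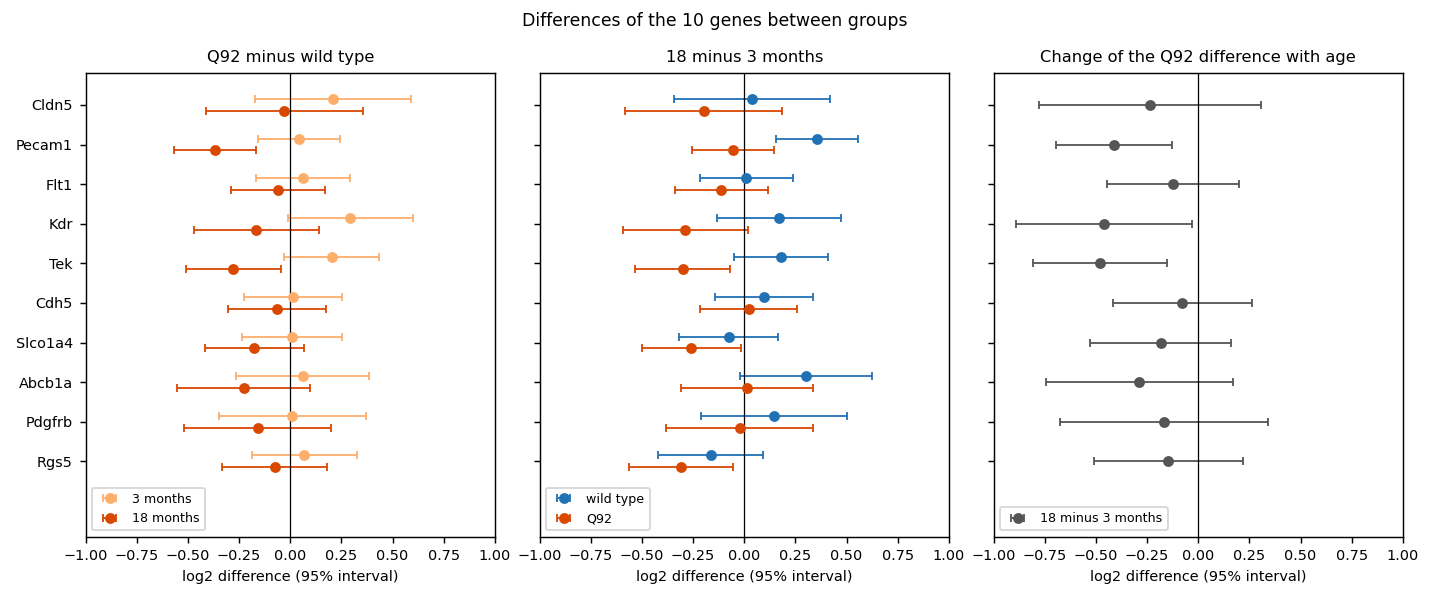
Log2 differences of the 10 genes (horizontal axis) with 95% intervals, for Q92 minus wild type at each age (left), 18 minus 3 months in each genotype (middle) and the change of the Q92 difference with age (right). The left panel shows the 3-month points at or right of 0 and the 18-month points left of it for all 10 genes, and in the right panel the intervals of Pecam1, Kdr and Tek lie left of 0.

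Ageing was compared within each genotype. In wild type 8 of the 10 genes were higher at 18 than at 3 months, with a median of 0.12 (all genes -0.01), and 0 passed, where 0.0715% of all genes did. Pecam1 was 0.36 higher (interval 0.16 to 0.56, adjusted p = 0.242), with all old mice above all young ones, which held for 9.76% of all genes, while 8.81% had them below. Abcb1a was 0.30 higher (-0.02 to 0.63, adjusted p = 0.502), and its groups overlapped. Without mouse wt_3m_436, 5 of the 10 were higher, the median was -0.00157 and Abcb1a was 0.16 higher. With quantile normalisation 6 were higher. The old wild-type mice are the same animals that the 18-month genotype comparison used.

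In Q92, 8 of the 10 genes were lower at 18 months, with a median of -0.15 (all genes 0.01), and 0 passed, where 0.264% of all genes did. By their brightest probe sets, Flt1, Kdr, Tek and Rgs5 had all old mice below all young ones, 4 of 10, against 7.52% of all genes. The differences were -0.31 for Rgs5 (interval -0.57 to -0.05, adjusted p = 0.373), -0.30 for Tek (-0.53 to -0.07, adjusted p = 0.326), -0.29 for Kdr (-0.59 to 0.02, adjusted p = 0.499) and -0.11 for Flt1 (-0.34 to 0.12, adjusted p = 0.779). Slco1a4, with overlapping groups, was 0.26 lower (interval -0.50 to -0.02, adjusted p = 0.437). Pecam1, which stood out in wild type, differed by -0.06 in Q92. Without mouse Q92_18m_25, 6 of the 10 were lower.

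Over both genotypes together, 4 of the 10 genes were higher and 6 lower at 18 months, with a median of -0.05, and 0 passed, where 0.572% of all genes did. None of the 10 had all 6 old mice on one side of all 6 young mice (1.36% of all genes had them above and 0.506% below). Rgs5 was lower by 0.24 on average (interval -0.42 to -0.06, adjusted p = 0.211), with differences of -0.16 in wild type and -0.31 in Q92.

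Where several probe sets measured a gene, they did not always follow each other. For Abcb1a the second probe set, 1419758_at, followed the brighter one over the 12 mice (r = 0.93, rho = 0.94). The second probe sets of Pdgfrb (r = -0.32, rho = -0.41) and Cdh5 (r = -0.15, rho = -0.12) did not, and the latter was dim, with means from 2.92 to 3.18. One further probe set of Flt1, 1454037_a_at, was lower in every Q92 than in every wild-type mouse at 18 months, by 0.27 (interval -0.50 to -0.05, adjusted p = 0.539).

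Rgs5 had the widest disagreement. Its probe sets 1420942_s_at and 1420940_x_at both followed the brightest one, 1417466_at, with r of 0.84, and 1420940_x_at was lower by 0.81 in Q92 at 18 months than at 3 months (interval -1.27 to -0.35, adjusted p = 0.168). The probe set 1420941_at showed no such likeness (r = 0.04, rho = 0.03). In Q92 its mean went the other way with age, from 7.88 at 3 months to 8.24 at 18 months. The 1420941_at signal at 18 months was 7.08, 7.14 and 7.33 in wild type and 8.38, 8.38 and 7.95 in Q92. All old Q92 mice were thus above all old wild-type mice. The difference of 1420941_at was 1.05 (interval 0.46 to 1.65, a 2.08-fold higher signal), with an adjusted p of 0.265, and its sign was opposite to that of the other 3 Rgs5 probe sets. At 3 months the 1420941_at signal was 8.38, 8.10 and 7.02 in wild type and 7.85, 7.64 and 8.16 in Q92, with mouse wt_3m_467 far below its group. Without that mouse, which takes no part in the 18-month means but widens the spread, the adjusted p at 18 months was 0.0403. The 1420941_at signal moved with the 18S control signal over the 12 mice (r = 0.57, rho = 0.64), and its 18-month difference with that signal as a covariate was 0.86 (adjusted p = 0.699). The part of the 18S signal in it was not tested further.

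**Figure D3:**
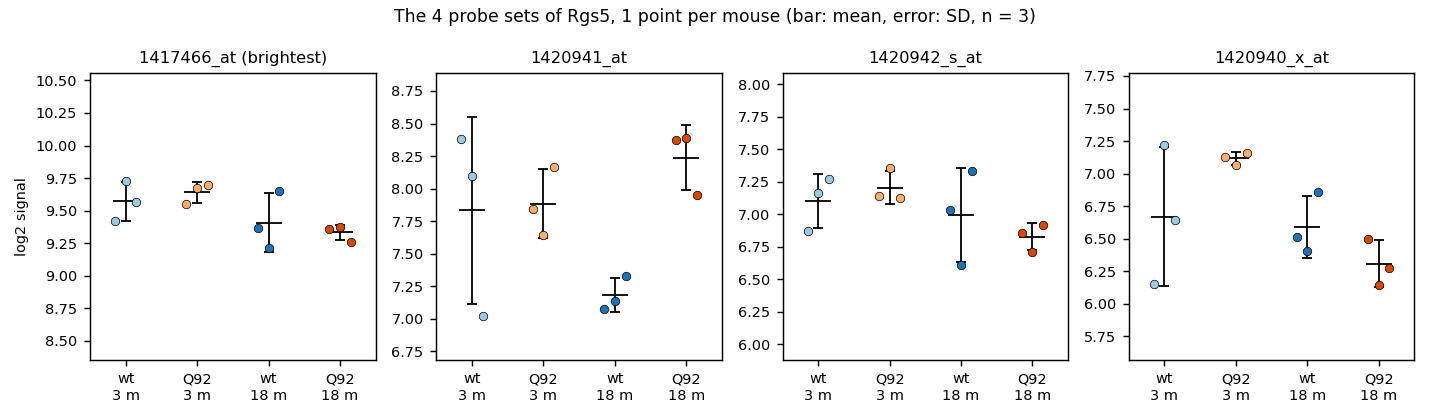
Log2 signal of the 4 Rgs5 probe sets by group, 1 point per mouse, with the mean (bar) and SD (error bar, n = 3), on axes of equal height. In 1420941_at the Q92 mice of 18 months, at 7.95 to 8.38, lie above the wild-type mice of that age, at 7.08 to 7.33, and the other 3 probe sets show no such gap.

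The other vascular genes were read from lists of known markers. Of 36 measured other endothelial and barrier genes, 33 were lower and 3 higher in Q92 at 18 months, with a median of -0.15, near that of the 10 genes, and 0 passed. Their mean level about the 12-mouse mean was 0.02, 0.12 and 0.09 in wild type. In Q92 it was -0.04, -0.16 and -0.04, lowest in mouse Q92_18m_25. These are the same mice as for the 10 genes, so the likeness is not separate evidence. In 7 of the 36, all Q92 mice were below all wild-type mice, against 7.51% of all genes. Icam2, an adhesion molecule of endothelial cells, was 5.20, 5.29 and 5.28 in wild type and 4.87, 4.74 and 4.88 in Q92, a clear gap (difference -0.43, SE 0.10, adjusted p = 0.216). Vwf, von Willebrand factor, differed by -0.51 (SE 0.23, adjusted p = 0.626). At 3 months 22 of the 36 were higher and 14 lower in Q92, with a median of 0.04. The change of the difference with age was negative in 31 of the 36, with a median of -0.16.

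Of 21 other pericyte and smooth muscle genes, 14 were lower in Q92 at 18 months, with a median of -0.12, and 0 passed. Vtn, which encodes vitronectin, was 8.51, 8.49 and 8.66 in wild type and 8.21, 8.05 and 8.34 in Q92, without overlap (difference -0.35, SE 0.13, adjusted p = 0.493). Abcc9, a subunit of the potassium channel of mural cells, differed by -0.26 (SE 0.14, adjusted p = 0.707). Tagln, which encodes the smooth muscle protein transgelin, was lower by 0.41 at 18 months over both genotypes (SE 0.11, adjusted p = 0.126), with all old mice below all young ones. Of 13 fibroblast genes 11 were lower in Q92 at 18 months, with a median of -0.18. Their mean level was 0.41 above its 12-mouse mean in mouse wt_18m_12, one of those with high choroid plexus genes, and it was 0.06 and -0.05 in the other old wild-type mice and -0.04 to 0.01 in the old Q92 mice. The part of choroid plexus tissue in it was not tested.

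Among the ligands and partners of the receptors above, 9 of 17 genes were lower and 8 higher in Q92 at 18 months, with a median of -0.02. Vegfa, the ligand of Flt1 and Kdr, was 7.22, 7.36 and 7.39 in wild type and 7.14, 6.89 and 6.87 in Q92, without overlap (difference -0.36, SE 0.11, adjusted p = 0.360). At 3 months Vegfa was 0.11 higher in Q92 (SE 0.11), and the change with age was -0.47 (SE 0.15, adjusted p = 0.935). Of 12 genes of the Wnt pathway that maintains the barrier, 9 were lower in Q92 at 18 months, with a median of -0.16. Reck, a co-receptor of that pathway, was 6.66, 6.74 and 6.84 in wild type and 6.36, 6.37 and 6.17 in Q92, without overlap (difference -0.45, SE 0.12, adjusted p = 0.291). Fzd4, a receptor of the pathway, was 5.93, 5.93 and 5.87 in wild type and 6.92, 6.30 and 6.56 in Q92 at 3 months (difference 0.68, SE 0.17, adjusted p = 1.00), and at 18 months the genotypes had the same mean of 5.99.

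Of 5 leukocyte adhesion genes, 4 were lower in Q92 at 18 months. Ackr1, the chemokine-binding receptor of venules, was 8.99, 8.83 and 8.82 in wild type and 8.53, 8.44 and 7.99 in Q92, without overlap (difference -0.56, SE 0.13, adjusted p = 0.204). Its difference between 18 and 3 months in Q92 was -0.62 (SE 0.13, adjusted p = 0.0985), the smallest adjusted p of the leukocyte adhesion list in that comparison. Vtn, Vegfa, Reck and Ackr1 were named for the size of their differences. Of all genes, 7.51% had every old Q92 mouse below every old wild-type mouse. No gene of the lists described in these paragraphs passed the test in any comparison.

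The 10 genes were also compared with each other over the 12 mice. Kdr followed the mean of the other endothelial genes most closely (r = 0.73, rho = 0.80), and r was 0.65 without mice wt_3m_436 and Q92_18m_25 and 0.68 within groups. For the other 7 endothelial genes r lay between 0.24 and 0.50, and for several of them it was less steady. For Cldn5 it was 0.36 over all mice, without mice wt_3m_436 and wt_18m_17, and within groups. For Cdh5 it was 0.45, but 0.55 within groups and 0.19 without mice wt_3m_436 and Q92_18m_25. It was 0.50 for Tek but 0.02 within groups, 0.24 for Slco1a4 but 0.08 within groups, and 0.45 for Abcb1a but 0.02 without mice wt_3m_436 and Q92_18m_25. Pdgfrb and Rgs5 had r of 0.26 and rho of 0.29 with each other, and r was 0.49 within groups. Such values share the array and the dissection of each mouse. Averaged over the 10 genes, mouse wt_18m_17 stood 0.17 above the 12-mouse mean, and mice wt_3m_436 and Q92_18m_25 stood 0.18 and 0.19 below it.

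**Figure D4:**
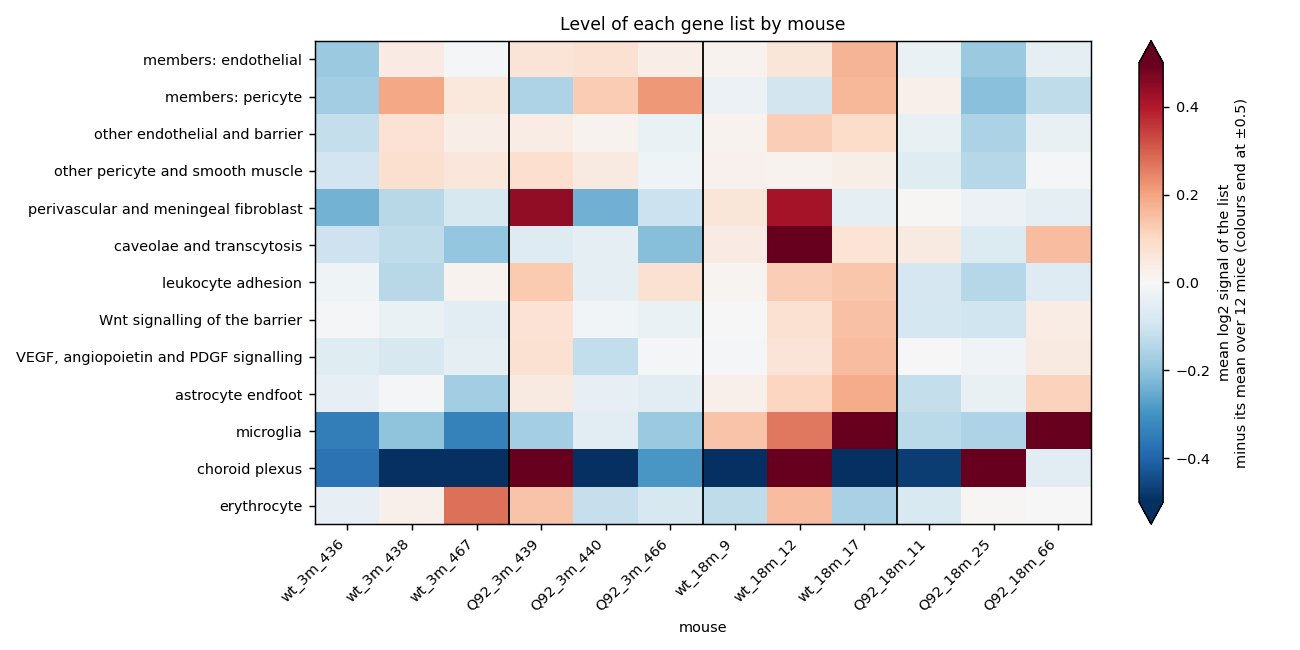
Mean log2 signal of each gene list in each mouse (columns, grouped by genotype and age) minus its mean over the 12 mice, with colours that end at ±0.5. The row of the 8 endothelial genes stays within 0.19 of 0, with mice wt_3m_436 and Q92_18m_25 low and mouse wt_18m_17 high, while the choroid plexus row runs past the colour limits in 8 of the 12 mice, above in mice Q92_3m_439, wt_18m_12 and Q92_18m_25.

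Among 12751 other genes above the 40th percentile, those whose pattern over the 12 mice was most like the mean of the 8 endothelial genes were Anks1b (r = 0.90, rho = 0.80), Rras (r = 0.87, rho = 0.73) and Ctnna1 (r = 0.86, rho = 0.88). Of the 10 nearest, Cd93 was the only one on a vascular list (r = 0.83, rho = 0.85), and its r was 0.66 without mice wt_3m_436 and Q92_18m_25. The genes nearest to the mean of Pdgfrb and Rgs5 were Auts2 (r = 0.87, rho = 0.88), Tmem263 (r = 0.87, rho = 0.80) and Il1rapl1 (r = 0.86, rho = 0.80), then Kitl (r = 0.86, rho = 0.94), and none of the 5 nearest was on a vascular list. These are the highest of many values over 12 mice and are given as a description.

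Flt1, Kdr and Abcb1a lie on chromosome 5, as does Htt, separated from it in RefSeq order by 877, 169 and 188 measured genes. The other 7 genes lie on other chromosomes. The 18-month differences of Flt1, Kdr and Abcb1a, at -0.06, -0.17 and -0.23, fell within the range of the other 7. At 3 months Kdr, at 0.29, lay above that range, whose highest value was 0.21 for Cldn5, and Flt1 and Abcb1a, both at 0.06, lay within it.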

How the data were processed

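Total RNA was extracted with TRIzol and cleaned on RNeasy columns, then biotin-labelled and hybridised to Affymetrix mouse genome arrays, per the labels' protocols. The authors deposited a log2 signal for each probe set and mouse, made with RMA and the affy package, per the submitters' processing notes, with no version. The sources used here do not say whether all 12 arrays were normalised in one run. Values lay between 2.03 and 13.8 and were tested unaltered. RMA removes differences in total signal, so differences are relative to the other genes.

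Of 45101 probe sets, 64 controls were left out and 45037 tested with limma 3.58.1 in R 4.3.3, in 1 model with a mean per group over all 12 arrays (8 residual and 4.50 prior degrees of freedom) and 6 comparisons. The platform annotation paired 34945 probe sets with 1 gene, 932 with several and 9160 with none. Of the 18193 genes, 18032 had an identifier in the RefSeq table of GRCm38.p6. The number of arrays limits the precision, and the median SE of the 18-month genotype difference was 0.122. A group of 3 against 3 is called without overlap when every mouse of one lies above every mouse of the other. Correlations are Pearson's r and Spearman's rho.

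The 10 genes and 16 further lists (195 genes, 183 measured) were chosen with earlier results of these data known. The lists cover other endothelial and barrier, other pericyte and smooth muscle, fibroblast, VEGF, angiopoietin and PDGF, Wnt, caveolae, leukocyte adhesion, astrocyte endfoot, erythrocyte, choroid plexus, microglia, astrocyte, oligodendrocyte, projection neuron, cortical excitatory neuron and thalamic neuron genes. From each list the genes past the threshold, up to 4, and the 2 with the largest differences in a comparison could be named; Tagln, Vtn and all others named follow this rule. For likeness in pattern, the 10 genes nearest to the endothelial mean and the 5 nearest to the pericyte mean could be named. Alternatives were quantile normalisation, a filter at the 40th percentile of signal, averaging the probe sets of each gene, sex as a covariate, fitting just the 6 or 12 arrays of a comparison, an intensity trend with a robust prior, a block for age in days and leaving out each mouse. Covariates for the 18S signal and the choroid plexus level were added after seeing the data. The fit was tested on simulated data.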

Additional observations from a re-analysis of the deposited data

How the results depend on the processing

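None of the 10 genes, each by its brightest probe set or by the mean of its probe sets, passed the threshold in 960 values recomputed under the alternatives, and the smallest adjusted p was 0.134 for the 18-month genotype difference, 0.934 for that at 3 months, 0.576 for its change with age, 0.176 for ageing in wild type, 0.186 for ageing in Q92 and 0.151 for ageing over both genotypes. The sign changed in 59 of the 960, in 0 of them with an interval off 0. The median difference of the 10 genes moved by more than the spread between mice of a group, 0.09, in some cases. The moves to 0.18 for ageing in wild type and to -0.15 for the change with age, given below, were smaller. So were the moves of the other comparisons when 1 mouse was left out. With a block for age in days, the 18-month genotype median was -0.071. With the choroid plexus level as a covariate, chosen after seeing the data, the median change with age was -0.30. Leaving out 1 mouse at a time gave an ageing median in wild type between -0.00157 (without wt_3m_436) and 0.18 (without wt_3m_438), and a median change with age between -0.33 (without Q92_18m_11) and -0.15 (without wt_3m_436). The same medians ran from -0.19 to -0.08 for Q92 against wild type at 18 months, from 0.02 to 0.14 at 3 months, from -0.19 to -0.09 for ageing in Q92 and from -0.07 to 0.01 for ageing over both genotypes. The cause of these moves was not tested. No paired analysis was possible because animal numbers do not repeat between groups. With 3 arrays per group and a median SE of 0.122, a difference of the size seen for most of these genes cannot be told from 0.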

Other observations

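Genes of caveolae and transcytosis, the vesicle route across the endothelium that is kept low in the brain, were higher at 18 than at 3 months in wild type in 5 of 5, with a median of 0.35, and in Q92 in 4 of 5, with a median of 0.14. None passed the test. Plvap, a protein of the diaphragms of fenestrated and leaky endothelium, was 6.25, 6.26 and 6.63 in the wild-type mice of 3 months and 6.77, 7.22 and 6.66 in those of 18 months. It was 6.25, 6.54 and 6.05 in the young Q92 mice and 6.62, 6.67 and 6.55 in the old ones. In both genotypes every old mouse was above every young one of the same genotype, which held for 1775 of the 18193 genes in wild type and 1823 in Q92, with differences of 0.50 (SE 0.16, adjusted p = 0.333) and 0.33 (SE 0.16, adjusted p = 0.504), and 0.42 over both (SE 0.12, adjusted p = 0.129). Mouse wt_18m_12, whose choroid plexus genes were among the highest, had the highest level of the caveolae list, 0.51 above the 12-mouse mean. Mouse Q92_3m_439, with the highest choroid plexus level, 2.16, had a caveolae level of -0.06. The part of choroid plexus in the caveolae levels was not tested.

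Other vascular genes also differed with age without passing. Cd34, a surface glycoprotein of endothelial cells, was 5.67, 5.72 and 5.86 in the young wild-type mice and 6.09, 5.98 and 6.57 in the old ones, and 5.43, 5.76 and 6.08 in the young Q92 mice and 6.67, 6.59 and 6.09 in the old ones. Every old mouse was above every young one of its genotype, which held for 9.76% of all genes in wild type. For Q92 the count of all genes given with Plvap applies. In Q92 the lowest old mouse, at 6.09, was only just above the highest young one, at 6.08. The difference over both genotypes was 0.58 (SE 0.14, adjusted p = 0.0888). The leukocyte adhesion list had a mean level, about its 12-mouse mean, of -0.05 at 3 months and 0.09 at 18 months in wild type. In Q92 that level went the other way, from 0.05 to -0.10. Of its genes, Vcam1 and Icam1, the adhesion molecules that leukocytes bind, were each 0.53 higher at 18 months in wild type (adjusted p = 0.277 and 0.279). Beside them, the astrocyte gene Gfap rose with age in wild type by 1.86 (SE 0.26, adjusted p = 0.0304), and 9 of 10 microglial genes were higher in old than in young wild-type mice, with a median of 0.63. The mean level of the erythrocyte genes, a sign of blood left in the tissue, ranged from -0.16 to 0.15 about its 12-mouse mean in the old wild-type mice, and was 0.28 in mouse wt_3m_467 and -0.04 and 0.02 in the other young ones.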
